A study of Rattus norvegicus with 8 samples.

Results

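The genes described here encode the chondroitin sulphate matrix of the brain and its best known cellular partner. They are the lecticans Acan (aggrecan), Bcan (brevican) and Ncan (neurocan), the link proteins Hapln1, Hapln2 and Hapln4, the glycoprotein Tnr (tenascin-R), and Pvalb (parvalbumin), a calcium buffer of fast-spiking neurons that such matrix often surrounds. They were chosen by name, with earlier results of these data known, each through the probe set annotated to its symbol. All 8 were measured among 14506 genes. Each has a single uniquely named probe set, so no choice between probe sets was needed, and all 8 lie in the upper 60 percent of genes by mean signal. That position does not show detection. Acan (log2 intensity 6.59 to 7.22) and Hapln1 (6.95 to 7.25) were the dimmest members. On the same arrays the skeletal muscle markers Acta1 and Myh1 were at 7.94 to 8.11 and 5.49 to 5.75, so signal at the level of Acan does not by itself show expression.

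RNA came from the hypothalamus of female Sprague-Dawley rats aged 21 days and was hybridised to Affymetrix Rat Gene 1.0 arrays, 2 arrays for each of 4 groups. CR-l offspring had calorie-restricted mothers and received leptin, CR-s offspring had restricted mothers and received saline, Con-l offspring had normally fed mothers and received leptin, and Con-s offspring had normally fed mothers and received saline. Restricted mothers were fed 50% fewer calories between gestation days 11 and 21, with restriction kept up postnatally, and leptin (the adipose hormone that lowers food intake) or saline was given on postnatal days 2 to 8. The design text writes the Con-l group as Con-r, and the labels leave unclear whether dams or pups were injected. Nothing says whether a sample pools several pups or litters. The p-values rest on the spread between the 2 arrays within each group, moderated over all genes. Whether that is a spread between animals or litters is not known.

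In a perineuronal net, chains of hyaluronan anchored at the cell surface carry lecticans, link proteins lock each lectican to hyaluronan, and the trimeric tenascin-R ties the far ends of the lecticans together. Such nets are known to form late in postnatal development, as juvenile plasticity ends, and to wrap parvalbumin neurons in cortex and several subcortical nuclei. A looser matrix of brevican and neurocan fills the space around other neurons and astrocytes, and brevican with Hapln2 also sits at the nodes of Ranvier of myelinated axons.

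Array medians ran from 111.8 to 114.1 intensity units. CR-s replicate B stood apart, with an interquartile range of log2 intensity of 2.92 (3.01 to 3.08 on the other arrays) and a second principal component score of 14.0, where the others lay between -5.37 and 2.88. Of 13 measured markers of hypothalamic neurons, the dimmest was Pomc at log2 intensities of 6.21 to 6.58, and Pmch was at 11.1 to 11.5. The scale has no 0, so no marker can be absent in that sense.

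The first question was how restricted offspring differed from controls, averaged over leptin and saline (4 arrays against 4). Most members had lower values in the restricted group, with Ncan and Acan furthest from controls, but no member passed the test over all genes. Of the 8 members 7 were lower, where 49.7% of all genes were. By limma, 0 of the 8 members reached a Benjamini-Hochberg adjusted p under 0.05, where 1.21% of all genes did. At an unadjusted p under 0.05, 6 of the 8 were lower and 0 higher, where 9.04% of all genes were lower at that level. Pvalb was 1 of the 6, at -0.22 (SE 0.07, adjusted p = 0.214), but its difference was -0.43 under leptin and -0.01 under saline. Of the 7 members other than Pvalb, 5 were lower at that level. The median log2 difference was -0.21 over the 8 members and 0.00 over all genes. Bulk tissue cannot tell fewer cells of a type apart from less RNA per cell.

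Neurocan, a lectican made by neurons and astrocytes that is most abundant in the young brain, had the largest difference and the smallest p of the members. Ncan had log2 intensities of 9.36 and 9.58 in CR-l, 9.51 and 9.46 in CR-s, 9.79 and 10.03 in Con-l, and 9.75 and 9.87 in Con-s. Every restricted array lay below every control array. The averaged difference was -0.38 (SE 0.08, 95% confidence interval -0.56 to -0.21, adjusted p = 0.0712), a 1.30-fold lower level in CR. The group means ran from 9.47 in CR-l through 9.49 in CR-s and 9.81 in Con-s to 9.91 in Con-l. Within each diet the leptin and saline means differed by less than the larger of their SDs (0.16 in CR-l and 0.17 in Con-l, n = 2 each).

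Brevican, a smaller lectican of glial cells and neurons that is retained in adult matrix, also had its lower values in the restricted groups, with less spread. Bcan was at 10.18 and 10.30 in CR-l, 10.27 and 10.26 in CR-s, 10.37 and 10.52 in Con-l, and 10.47 and 10.48 in Con-s. The diets did not overlap. The averaged log2 difference was -0.21 (SE 0.05, interval -0.33 to -0.09, adjusted p = 0.119), or 1.16-fold lower in CR. It was -0.21 in leptin-treated and -0.21 in saline-treated offspring, estimated from separate arrays. The leptin-treated value was -0.13 without Con-l replicate B.

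Aggrecan, the lectican most closely tied to mature nets, was dim here, as given, and varied more between replicates. Acan had log2 intensities of 6.59 and 6.84 in CR-l, 6.81 and 6.81 in CR-s, 6.90 and 7.22 in Con-l, and 7.21 and 6.95 in Con-s. All 4 restricted arrays were below all 4 control arrays, with the highest CR and the lowest Con array only 0.06 apart. The averaged difference was -0.31 (SE 0.10, interval -0.54 to -0.08, adjusted p = 0.195), or 1.24-fold lower in CR.

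The promoters of these lectican genes are shown because their transcripts were low on the same arrays. Each window runs from 250 bases before to 50 bases after the start that the RefSeq table gives, in GRCr8, 5′ to 3′ on the gene's strand, and capitals mark the GC box GGGCGG or its reverse CCGCCC. Ncan lies at chr16:19335657-19335956 (plus strand), Bcan at chr2:175765265-175765564 (minus strand) and Acan at chr1:142390701-142391000 (plus strand).
Ncan: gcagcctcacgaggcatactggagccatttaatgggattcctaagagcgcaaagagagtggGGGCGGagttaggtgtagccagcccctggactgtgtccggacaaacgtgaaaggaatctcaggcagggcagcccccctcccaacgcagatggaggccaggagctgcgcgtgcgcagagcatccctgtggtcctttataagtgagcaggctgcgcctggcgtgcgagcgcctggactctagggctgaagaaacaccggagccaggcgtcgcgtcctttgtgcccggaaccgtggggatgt
Bcan: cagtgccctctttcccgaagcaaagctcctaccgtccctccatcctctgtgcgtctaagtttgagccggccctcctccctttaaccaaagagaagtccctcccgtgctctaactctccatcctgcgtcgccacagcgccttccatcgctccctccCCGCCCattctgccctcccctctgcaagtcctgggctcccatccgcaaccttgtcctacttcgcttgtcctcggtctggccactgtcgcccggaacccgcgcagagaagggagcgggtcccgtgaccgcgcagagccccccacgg
Acan: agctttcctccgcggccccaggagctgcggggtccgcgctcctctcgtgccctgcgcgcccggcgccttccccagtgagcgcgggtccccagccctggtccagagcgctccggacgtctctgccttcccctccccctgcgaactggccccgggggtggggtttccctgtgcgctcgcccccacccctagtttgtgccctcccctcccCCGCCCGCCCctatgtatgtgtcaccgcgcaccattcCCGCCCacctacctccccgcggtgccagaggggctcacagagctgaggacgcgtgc
The search found 1 GC box in the Ncan window, 1 in Bcan and 3 in Acan, of which 2 overlap by 2 bases. The motif occurs on either strand in 33.1% of 33469 rat promoter windows of this length. The Ncan window also holds TATAAA, but on the strand opposite the gene, so that it is printed as tttata. A match on either strand occurs in 14.2% of windows, and the other lectican windows have none. Among the other members, Pvalb has 1 GC box in its window and Hapln1, Hapln2, Hapln4 and Tnr have 0. These are matches of letters, not evidence of binding.

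Link proteins stabilise the bond between lecticans and hyaluronan, and their estimates ranged from -0.21 to 0.03. In the RefSeq gene order each lectican gene lies beside a link protein gene, with 0 protein-coding genes between Bcan and Hapln2, Ncan and Hapln4, Acan and Hapln3, or Vcan and Hapln1. Hapln2, the link protein found at nodes of Ranvier in mice, was at 8.19 and 8.12 in CR-l, 7.94 and 8.16 in CR-s, 8.35 and 8.37 in Con-l, and 8.32 and 8.21 in Con-s. The diets were separated by only 0.02 between the highest CR and the lowest Con array. The averaged difference was -0.21 (SE 0.06, adjusted p = 0.162), next to -0.21 for its neighbour Bcan.

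Hapln4, a link protein known in mice from nets of the brainstem and cerebellum, where it holds brevican, ranged from 8.03 to 8.22 in CR and from 8.14 to 8.32 in Con. These ranges overlapped through CR-s replicate B, the highest CR array. The averaged difference was -0.14 (SE 0.06, adjusted p = 0.301), against -0.38 for the adjacent Ncan. Without CR-s replicate A, the difference of Hapln4 was -0.09. Hapln1, the link protein essential for compact nets in mice, was at 6.97 and 7.25 in CR-l, 7.23 and 6.95 in CR-s, 7.23 and 7.08 in Con-l, and 6.99 and 6.96 in Con-s. Its replicates within each restricted group lay further apart than any of the group means did, and the averaged difference was 0.03 (SE 0.09, interval -0.17 to 0.24, adjusted p = 0.897). The neighbouring Vcan (versican, the lectican of oligodendrocyte precursors and nodes) differed by -0.16 (SE 0.04, adjusted p = 0.117), and Hapln3, named here as the neighbour of Acan after its value was seen, by -0.04 (SE 0.06, adjusted p = 0.758).

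Tenascin-R, made largely by oligodendrocytes and some interneurons, crosslinks lecticans. Tnr spanned 10.27 to 10.40 in CR and 10.38 to 10.46 in Con. The ranges met between CR-l replicate B and Con-s replicate B. The averaged difference was -0.10 (SE 0.04, interval -0.20 to 0.00, adjusted p = 0.327), the smallest among the members that were lower.

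In 4 of the 8 genes (Ncan, Bcan, Acan and Hapln2) every CR array lay below every Con array, as in 6.67% of all genes, and 11.2% of all genes had no overlap in either direction. Relative to the Con mean, the average of the 8 members was -0.29 and -0.15 on the CR-l arrays, -0.19 and -0.15 on the CR-s arrays, -0.02 and 0.06 on the Con-l arrays, and 0.01 and -0.05 on the Con-s arrays (log2). CR-l replicate A was the lowest array, with all 8 members below their Con mean.

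**Figure D1:**
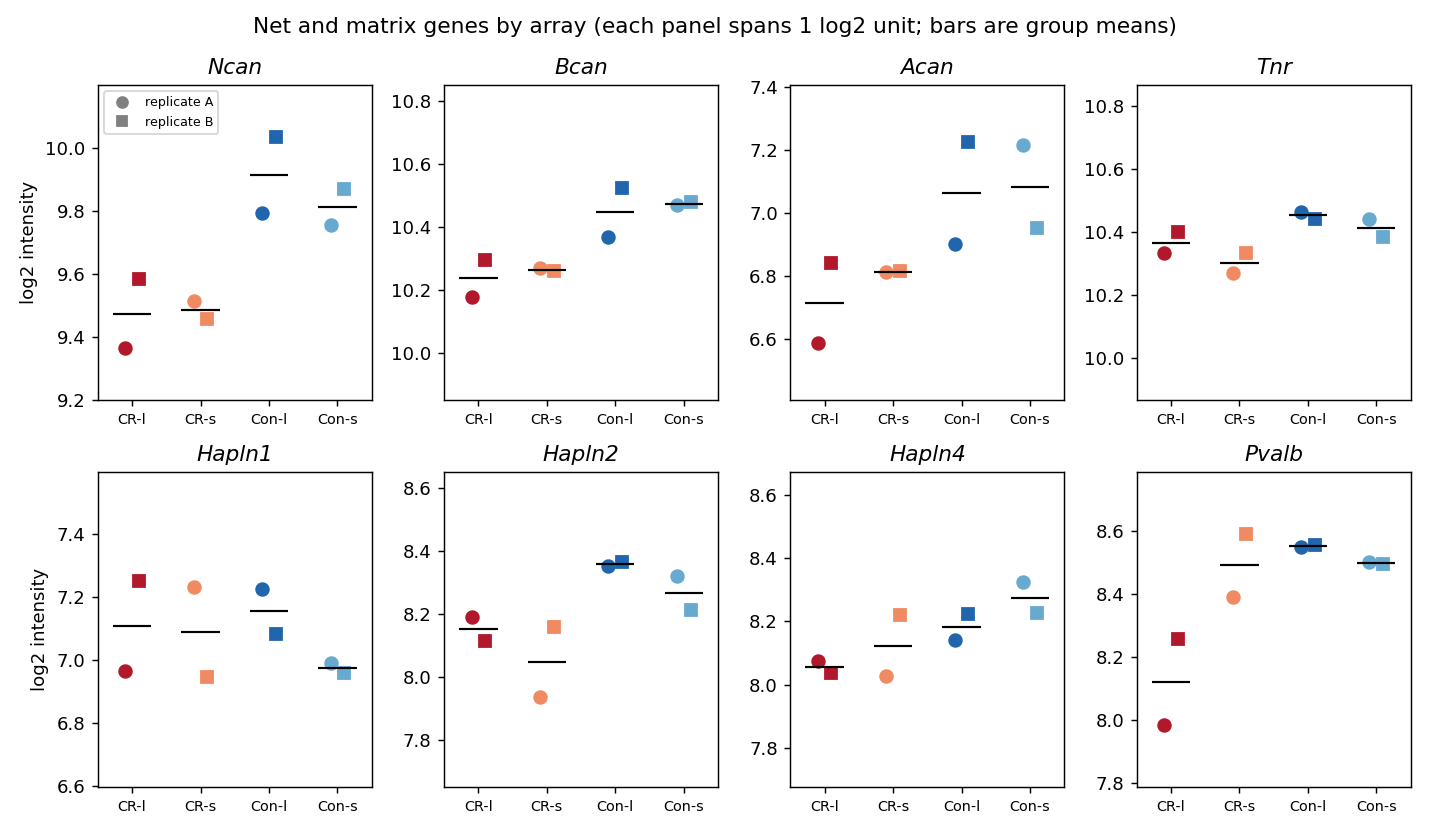
Log2 intensity of each gene on each of the 8 arrays, by group, with circles for replicate A, squares for replicate B and bars for group means. In Ncan, Bcan, Acan and Hapln2 all 4 CR arrays lie below all 4 Con arrays, while Hapln1 shows no order and Pvalb is lowest on both CR-l arrays.

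Split by treatment, the diet differences were estimated from separate arrays under leptin and under saline. In leptin-treated offspring (CR-l minus Con-l) all 8 members were lower, where 49.5% of all genes were, from -0.44 for Ncan and -0.43 for Pvalb to -0.05 for Hapln1. There 0 members passed by limma (smallest adjusted p 0.159), where 0.0207% of all genes did, and 5 were lower at an unadjusted p under 0.05, where 7.27% of genes were. In saline-treated offspring (CR-s minus Con-s) 7 members were lower, where 51.7% of all genes were, from -0.33 for Ncan to -0.01 for Pvalb, and Hapln1 was at 0.11. By limma 0 members passed (smallest adjusted p 0.466), as did 0% of genes, and 3 members (Ncan, Bcan and Hapln2) were lower at an unadjusted p under 0.05, where 5.1% of genes were.

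**Figure D2:**
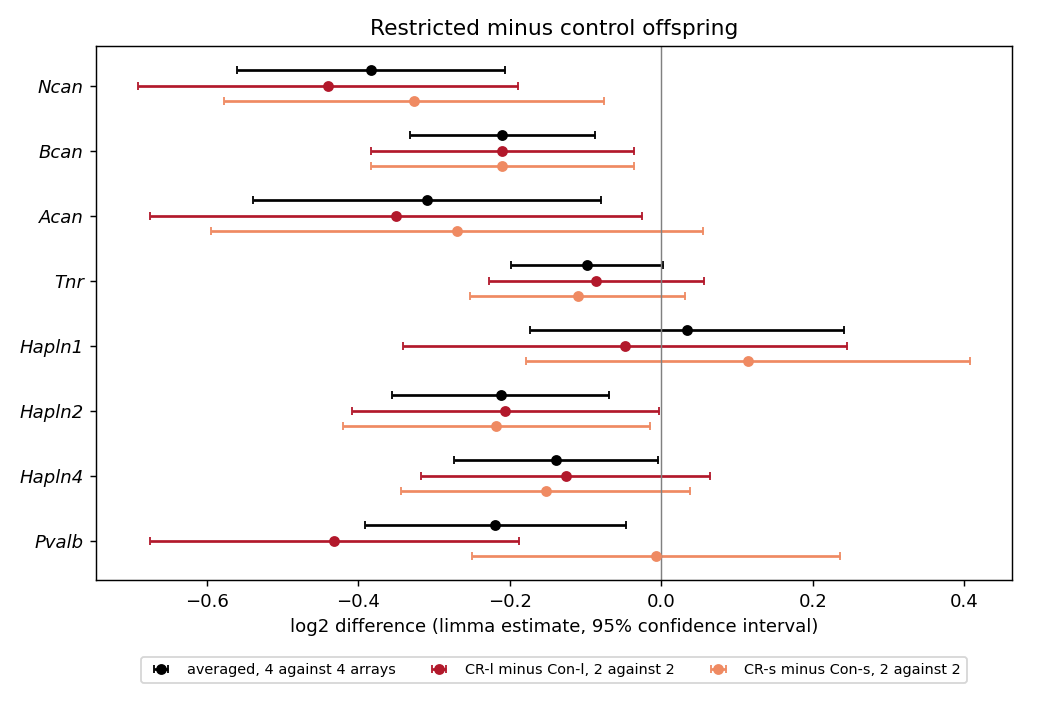
Log2 difference of restricted minus control offspring for each gene, averaged over treatments (black), under leptin (red) and under saline (orange), with 95% confidence intervals from limma. Bcan and Hapln2 have nearly equal estimates under both treatments, and for Pvalb the estimate is -0.43 under leptin and -0.01 under saline.

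Parvalbumin, which buffers calcium in fast-spiking inhibitory neurons, had its low values in 1 group. Pvalb had log2 intensities of 7.98 and 8.26 in CR-l, 8.39 and 8.59 in CR-s, 8.55 and 8.56 in Con-l, and 8.50 and 8.50 in Con-s. Both CR-l arrays lay below the other 6 arrays, which spanned 8.39 to 8.59. The CR-l mean was 8.12 ± 0.19 (SD, n = 2), against 8.49 ± 0.14 in CR-s, 8.55 ± 0.01 in Con-l and 8.50 in Con-s, where both arrays agreed to 2 decimals. The means of CR-s, Con-l and Con-s differed from each other by less than the SD of CR-s.

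The question of what early leptin did in restricted offspring was addressed by CR-l minus CR-s. Pvalb differed by -0.37 (SE 0.10, 95% interval -0.61 to -0.13, unadjusted p = 0.00852, adjusted p = 0.808 by limma), a 1.29-fold lower level in CR-l. Without CR-s replicate B, the array that stood apart, the difference was -0.27, and leaving out single arrays gave -0.51 (without CR-l replicate B) to -0.23 (without CR-l replicate A). The other 7 members lay between -0.10 (Acan) and 0.10 (Hapln2). In this comparison 0 of 8 members passed, as did 0% of genes, and 1 member was lower at an unadjusted p under 0.05, where 2.81% of genes were.

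In control offspring (Con-l minus Con-s) the 8 members differed by -0.09 (Hapln4) to 0.18 (Hapln1), and Pvalb by 0.05 (SE 0.10). By limma 0 members passed at either level, where 0% of genes passed after adjustment and 4.19% had an unadjusted p under 0.05. Averaged over diets, leptin minus saline was -0.16 for Pvalb (SE 0.07, adjusted p = 0.913; -0.09 without CR-l replicate A) and -0.08 to 0.10 for the others, with 0 members and 0% of genes passing. At an unadjusted p under 0.05 there were 0 members and 4.87% of genes.

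The leptin effect in CR minus that in Con, the interaction, was -0.42 for Pvalb (SE 0.15, interval -0.77 to -0.08, unadjusted p = 0.0222, adjusted p = 0.898). No member and 0% of genes passed, while 1 member and 2.73% of genes were lower at an unadjusted p under 0.05. For the other 7 members the interaction ranged from -0.16 (Hapln1) to 0.03 (Hapln4), with adjusted p of at least 0.951.

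**Figure D3:**
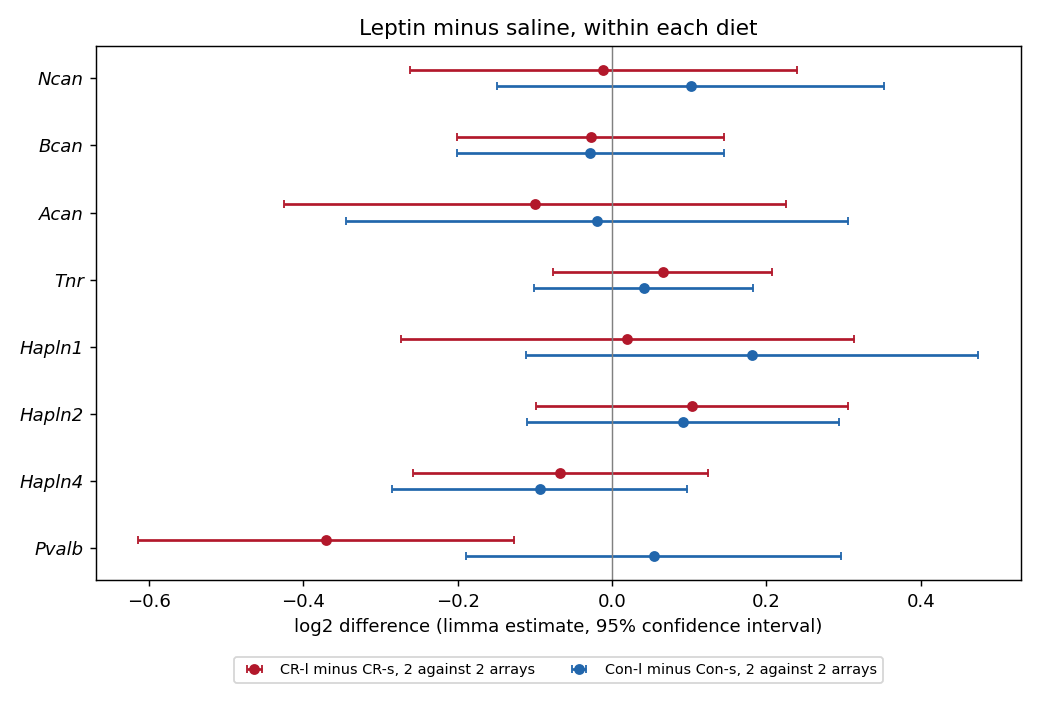
Log2 difference of leptin minus saline for each gene in restricted (red) and control (blue) offspring, with 95% confidence intervals from limma. All intervals include 0 except that of Pvalb in restricted offspring, at -0.61 to -0.13.

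Leptin-treated restricted offspring were also set against saline-treated controls (CR-l minus Con-s), which shares arrays with the comparisons above. Pvalb was at -0.38, Acan at -0.37, Ncan at -0.34, Bcan at -0.24 and Hapln4 at -0.22, with adjusted p from 0.259 to 0.364. Without CR-l replicate A, Pvalb was at -0.24. Hapln2 was at -0.11, Tnr at -0.05 and Hapln1 at 0.13, so that 7 members were lower, where 49.6% of all genes were. By limma 0 members passed, where 0.0138% of genes did, and 5 were lower at an unadjusted p under 0.05, where 6.5% of genes were.

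In the averaged diet comparison, markers of some other cell types were lower in CR beside the matrix genes, and others were mixed. Of all genes, 49.7% were lower there and 1.21% passed. All 11 measured markers of mature oligodendrocytes were lower in CR, 3 of them passing (Ermn at -0.54, Ugt8 at -0.28 and Cnp at -0.27), and their summed intensity ran from 39686 to 43134 in CR and from 45614 to 50214 in Con. Astrocyte markers were mixed, with 4 of 8 lower and Gfap, the intermediate filament of reactive and fibrous astrocytes, passing at -0.94 (SE 0.12, adjusted p = 0.0233). Their sum was 19919 to 21155 in CR and 20911 to 21720 in Con. Of 6 markers of oligodendrocyte precursors 3 were lower and none passed, with sums of 4652 to 5541 in CR and 5133 to 5282 in Con. Of 8 microglial markers 4 were lower and none passed, with sums of 3835 to 4154 in CR and 3877 to 4157 in Con. All 9 meningeal markers were lower and 3 passed, with sums of 2196 to 2641 in CR and 3118 to 4345 in Con. Of 9 endothelial and mural markers 7 were lower and 2 passed (Rgs5 at -0.38 and Tagln at -0.35), with sums of 3318 to 3529 in CR and 3877 to 4142 in Con. All 5 measured red blood cell markers were lower and all 5 passed (median -1.29), with sums of 1306 to 2124 in CR and 3796 to 5764 in Con. The part of these cells in the matrix gene values was not tested.

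For Pvalb, which is also abundant in the thalamic reticular nucleus and in fast muscle, markers of neighbouring tissue are given. The thalamic list is for thalamic neurons at large, not for the reticular nucleus. The 4 measured thalamic markers of 9 summed to 5204 to 6457 in CR and 4996 to 5913 in Con. Prkcd alone ranged from 8.33 to 10.30 in CR and from 8.34 to 10.05 in Con, and it was highest on CR-l replicate A, the array on which Pvalb was lowest. The 8 muscle markers summed to 696 to 768 in CR and 709 to 748 in Con. In the interaction, where Pvalb was at -0.42, all 7 measured markers of striatal neurons were lower (median -0.15). By limma 2 of them had an unadjusted p under 0.05 and 0 passed, where 2.73% of all genes were lower at the unadjusted level. The 4 thalamic markers were all higher in the interaction (median 0.17), as were 6 of the 8 muscle markers (median 0.03), where the median over all genes was 0.01. In CR-l minus CR-s, where the median over all genes was 0.01, 5 of the 7 striatal markers were lower, 0 of them at that level. Relative to the Con mean, the striatal markers averaged 0.29 and -0.13 on Con-l replicates A and B, and 0.21 and -0.03 on those of CR-s. They averaged -0.08 and -0.03 on the CR-l arrays and -0.06 and -0.11 on the Con-s arrays. The highest striatal averages were thus each on a single array of a group. The part of these tissues in the Pvalb values was not tested.

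The wider machinery of the matrix was examined through lists of related genes in the averaged diet comparison, where 1.21% of all genes passed. Among 11 measured genes of hyaluronan synthesis, binding and turnover, 8 were lower (median -0.09) and 1 passed. Hyal1, a lysosomal hyaluronidase, was at 7.64 and 7.53 in CR-l, 7.77 and 7.77 in CR-s, 8.15 and 7.95 in Con-l, and 8.36 and 8.20 in Con-s. Hyal1 fell by 0.49 on the log2 scale in CR (SE 0.06, adjusted p = 0.0233), with no overlap between diets. The hyaluronan synthases Has2 and Has3 differed by -0.17 and -0.14 (adjusted p = 0.272 and 0.226).

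Of 19 matrix proteases and inhibitors, 10 were lower and 9 higher (median -0.01), and 1 passed in each direction. Mmp15, a membrane-bound metalloproteinase, ranged from 8.93 to 9.02 in CR and from 9.19 to 9.39 in Con, and fell by 0.33 (SE 0.04, adjusted p = 0.0233). Ctss, the gene of cathepsin S, a protease of microglia known to degrade net components, ranged from 11.20 to 11.28 in CR and from 10.94 to 11.05 in Con. It rose by 0.25 (SE 0.04, adjusted p = 0.0383). The calls of Hyal1, Mmp15 and Ctss were each lost when any single array was left out (adjusted p from 0.0524 to 0.139), while their differences stayed within -0.54 to -0.44, -0.35 to -0.30 and 0.24 to 0.26.

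None of 20 genes listed under chondroitin sulphate synthesis and sulphation passed (11 lower, median -0.02). The list also holds the sulphatases Arsb and Galns, which remove sulphate. The smallest p were those of the sulphatase Arsb (0.19, adjusted p = 0.144) and the sulphotransferases Chst15 (-0.17, adjusted p = 0.201) and Chst11 (-0.12, adjusted p = 0.285). Among 20 other proteoglycans and link proteins 8 were lower and none passed (median 0.03), led by Bgn (biglycan) at -0.35 (adjusted p = 0.0674), Vcan, as given, and Spock3 (testican-3) at 0.13 (adjusted p = 0.198). Ptprz1, whose products include the proteoglycan phosphacan, was at 0.03 (adjusted p = 0.844).

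Receptors and ligands of the net gave 0 of 12 passing (8 lower, median -0.01), with Nptx2 (a neuronal pentraxin of excitatory synapses onto parvalbumin cells) at 0.25 (adjusted p = 0.122), the chondroitin sulphate receptor Ptprs at -0.10 (adjusted p = 0.256) and Nrp2, a semaphorin receptor, at 0.11 (adjusted p = 0.505). Of 20 genes of fast-spiking neurons 10 were lower and none passed (median 0.00). Ppargc1a, a coactivator of mitochondrial genes, was at 0.25 (adjusted p = 0.0642), the potassium channel gene Kcnc1 at -0.16 (adjusted p = 0.125) and the heavy neurofilament gene Nefh at -0.15 (adjusted p = 0.338). Of 9 other EF-hand proteins 2 were lower and none passed (median 0.06): S100b was at -0.26 (adjusted p = 0.102), Calb2 (calretinin) at 0.16 (adjusted p = 0.153) and Necab2 at 0.12 (adjusted p = 0.392). Without Con-l replicate B, Nefh was at -0.08, Nrp2 at 0.06 and Necab2 at 0.07. No gene of these lists passed in any of the other comparisons by limma.

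**Figure D4:**
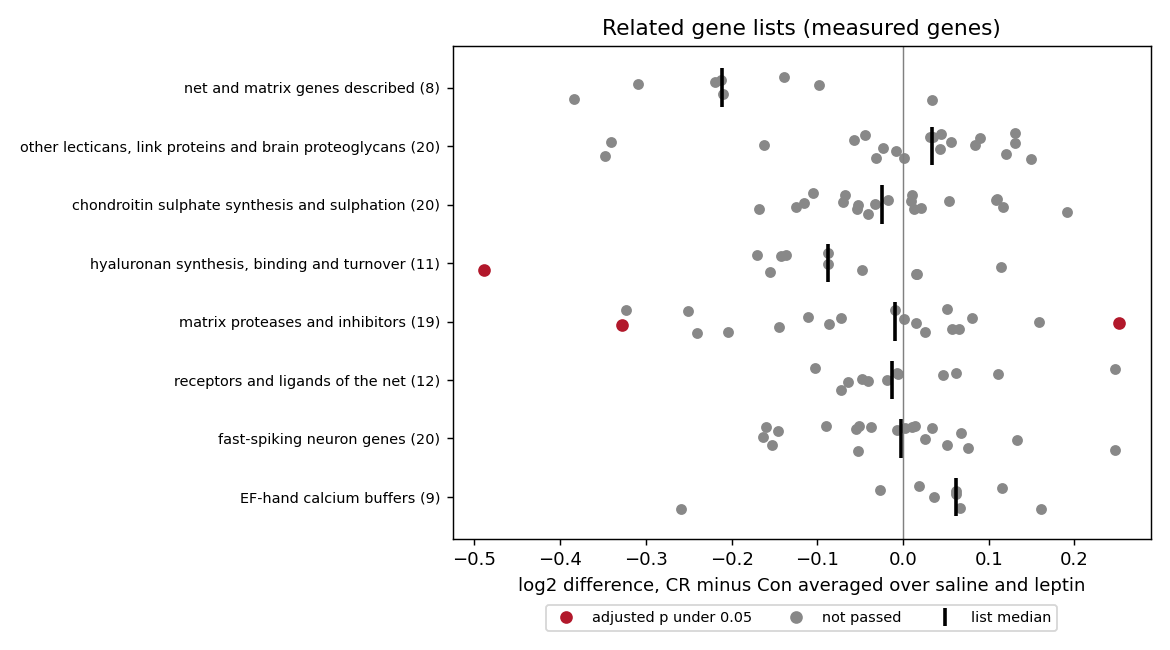
Log2 difference of restricted minus control offspring, averaged over treatments, for each measured gene of the lists, with black bars at list medians and red points for genes with an adjusted p under 0.05. Hyal1 and Mmp15 are the red points on the low side and Ctss is the one on the high side. The net and matrix genes have the lowest median of the lists shown, -0.21. Markers of mature oligodendrocytes, meningeal cells and red blood cells, not shown, had lower medians (-0.25, -0.44 and -1.29).

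For each member, the genes with the most similar profile over the 8 arrays were found by the root mean square difference of mean-centred log2 values, among genes that varied at least as much. Those nearest to Ncan were Aqp4 (the water channel of astrocyte endfeet, 0.07) and Ccna2 (0.07), which differed by -0.42 and -0.43 between diets. Bcan was nearest to Mrpl55 (0.03) and Stxbp4 (0.05), and Acan to Olr1177 (0.07) and S100a13 (0.09). Tnr was nearest to Chst11 (0.02), a chondroitin sulphotransferase gene, and to Klhl17 (0.03). Hapln2 was nearest to Dusp15 and Tjap1 (0.06 each), Hapln4 to Slc52a2 (0.04) and Fndc1 (0.05), Hapln1 to Or5as1 (0.06) and Trat1 (0.07), and Pvalb to Or2t1 (0.06) and Or2ak4 (0.08). With 8 arrays and from 588 to 11037 genes searched per member, likeness is given as a description.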

How the data were processed

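The authors deposited 1 intensity for each probe set and array. Per the submitters' processing notes they came from RMA in Affymetrix Expression Console. Its version and the genome build are not given in the sources used here. Since they run far past any log2 range, the intensities were taken as linear and log2-transformed without further normalization. Of 29215 probe sets, 15310 have 1 gene symbol (updated through RefSeq gene numbers), 323 several, and the rest are unnamed here. The brightest probe set per gene was kept, giving 14506 genes, with no filter on dim ones. A single limma model (limma 3.58.1, R 4.3.3) with 4 group means gave every comparison, with 4 residual and 3.21 prior degrees of freedom, two-sided tests and Benjamini-Hochberg adjustment over all genes at 0.05. It was also run on simulated data with independent noise and changes larger than those of the members, which does not examine differences of their size. Related genes were named if they passed, otherwise by the smallest p (up to 3 per list), and Hapln3, Has2, Has3, Ptprz1 and the markers of other cells after their values were seen. The genes and lists were chosen with earlier results of these data known. Having 2 arrays a group limits the precision. Alternatives were other normalizations, a pseudocount, a filter, other variance models, the letters as a block, other sample and probe set choices, and each array left out.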

Additional observations from a re-analysis of the deposited data

Results flagged for a closer look

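Acan on CR-l replicate A had a log2 intensity of 6.59, while the other 3 CR arrays lay between 6.81 and 6.84. Its gap was a larger share of the range of the 4 CR arrays (0.896) than Dixon's 95% limit for 4 values. These arrays hold leptin-treated and saline-treated offspring together, and chance flags about 5% of groups, of which 16 were looked at. Without this array the averaged difference of Acan between CR and Con was -0.25.

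The leptin effect on Pvalb differed between diets at an unadjusted p of 0.0222 (limma, interaction -0.42). The adjusted p over all genes was 0.898, so the difference did not pass, and 5.15% of all genes had an unadjusted interaction p under 0.05.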

How the results depend on the processing

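The count of genes passing in the averaged diet comparison was 175. It was 345 with a pseudocount of 16, 609 in the upper 60 percent by mean, 744 with trend and robust settings, 87 with the replicate block, 267 with the diet factor alone, 0 with all probe sets tested, and 0 (without Con-s replicate B) to 27 (without CR-l replicate A) with single arrays left out. Members passing were 0 there, but 1 (Ncan) with the pseudocount (adjusted p = 0.0319) and with diet alone (adjusted p = 0.0292), and 2 (Ncan and Bcan) with the upper 60 percent (adjusted p = 0.0216 and 0.0402) and with trend and robust settings (adjusted p = 0.0077 and 0.0133). Without any single array none passed (Ncan -0.44 to -0.32, adjusted p = 0.0993 to 0.233).

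For CR-s minus Con-s, 16 genes passed with the upper 60 percent and 66 with trend and robust settings, against 0. For CR-l minus Con-l, against 3, there were 24 with cyclic loess, 10 with quantile normalization, 143 with the pseudocount, 249 with the upper 60 percent, 469 with trend and robust settings (2 members, Ncan and Pvalb), 0 with the replicate block, the compared groups alone or all probe sets, and 0 to 3 without single arrays. For CR-l minus Con-s, against 2, they were 42, 103 and 213 with the pseudocount, the filter and trend and robust settings, 0 with the replicate block and all probe sets, and 0 to 1 without single arrays. Without a single array the 3 leptin comparisons and the interaction gave 0 to 1.

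Signs turned only for small differences among the settings run. Without single arrays Hapln1 ranged from -0.0379 to 0.105 in the averaged comparison, -0.0283 to 0.26 in CR-s minus Con-s and -0.19 to 0.10 in CR-l minus Con-l. Pvalb in CR-s minus Con-s was 0.0171 with cyclic loess, 0.0166 with quantile normalization, and -0.11 to 0.0933 without single arrays. The causes were not tested. Where 1 array of a group was left, it was assumed to vary like the other groups. Correlations of same-letter replicate deviations between groups ran from -0.06 to 0.11, so the replicate letters were not taken as pairs. The replicate block also ended the Ctss call (adjusted p = 0.0683), and all probe sets together ended those of Hyal1, Mmp15 and Ctss (adjusted p = 0.0788 to 0.112). Named related genes that did not pass gained calls: Bgn and Ppargc1a with the pseudocount (adjusted p = 0.0311 and 0.0299), the upper 60 percent (0.0203 and 0.0164) and trend and robust settings (0.00656 and 0.00506), and Ppargc1a with diet alone (0.0385). Vcan, Nptx2, Kcnc1 and S100b passed with the upper 60 percent (adjusted p = 0.0341 to 0.0434), and Arsb, Nptx2, Kcnc1, S100b and Calb2 with trend and robust settings (adjusted p = 0.00891 to 0.0235). The interaction has no setting with only the groups compared, since it needs all 4.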
